A study of Mus musculus with 17 samples.

Results

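Ribosome biogenesis genes were described in NIH 3T3 cells, fibroblasts of a line from mouse embryos that had been made quiescent, after PDGF and after inhibitors of signalling kinases. The list holds 36 genes, and a gene was measured where a probe set, the group of short probes that reports on a transcript, was annotated to that gene and no other. By this rule 33 of the 36 genes were measured, out of 12637 named genes in the series. The table of 8 arrays measured all 33 of them, and 58 of their 60 probe sets passed a filter that removed the dimmest 30% of probe sets by mean. The table of 9 arrays had probe sets for 29, of which 28 passed, and Wdr12 did not. Lyar, Nop14, Noc2l and Noc3l were measured in the 8-array table only. No probe set was annotated to Dkc1 or Nat10, and Mrto4 was reached only by a probe set it shares with the gene copies Mrto4-ps1 and Mrto4-ps2.

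A cell that leaves quiescence must make ribosomes, which begins in the nucleolus with transcription of ribosomal DNA by RNA polymerase I. The long precursor RNA is modified by small nucleolar ribonucleoproteins (snoRNPs), cut, folded and joined to ribosomal proteins by assembly factors of the small and the large subunit. Many of the genes for these factors are known targets of the transcription factor MYC, and the mTOR pathway, which lies downstream of PI3K, is known to control ribosome production.

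The series has 17 arrays in 3 experiments, with 1 array per condition. In the Src experiment (the 8-array table) cells received vehicle, SU6656 at 2 µM (an inhibitor of Src family kinases), UO126 at 10 µM (a MEK inhibitor) or LY294002 at 7.5 µM (a PI3K inhibitor), each without PDGF and with PDGF at 25 ng/ml for 1 h. A repeat of it held vehicle, PDGF, and PDGF with SU6656 at the same doses and PDGF time. In the MEK experiment cells were untreated or received UO126 at 10 µM or PD98059, another MEK inhibitor, at 7.5 µM, each without and with PDGF at 25 ng/ml, and the PDGF time is not given in the sources used here. The repeat and the MEK experiment share the 9-array table. The 8-array and the 9-array table are of different array types with different probe sets. Between these tables, array type and experiment cannot be told apart. All cells were quiescent and of 1 line, and the labels do not say whether any arrays stem from separate cultures, so p-values cover the spread among these arrays alone, and that spread may be technical. The line carries no genotype difference between groups, and in bulk RNA fewer cells with a transcript and less transcript per cell cannot be told apart.

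Signals are normalised intensities, and they were scaled on each array, so every value is relative to the rest of that array. Array medians of the deposited intensities were 133.7 to 198.4. PDGF showed in known genes. The immediate early genes Dusp6, Egr1, Junb, Fos and Ier2 rose with PDGF, 5 of 5 in each table (limma, adjusted p past the 0.05 threshold). Of the FOXO targets, Sesn1, Ccng2 and Txnip fell past it in both, 3 of 3 kept on the 8 arrays and 3 of 4 on the 9. The other, Irs2, had 0.43 (limma, adjusted p = 0.554). For LY294002, UO126, SU6656 and MEK inhibition, each against no inhibitor, 0 of these genes passed, so they do not show that each inhibitor acted. Dusp6 did differ between LY294002 and UO126 (1.72, limma, adjusted p = 0.0153). All 8 fibroblast markers passed the filter in both tables, with summed signals of 172591 to 207576 over the 8 arrays and 62064.7 to 118266 over the 9. Of 6 macrophage and leukocyte markers 4 passed on the 8 arrays and 3 on the 9, with sums of 860 to 1147.9 and 273.6 to 480.9, and of 5 epithelial markers 3 passed in each, with sums of 469.2 to 776.2 and 456.6 to 662.8. Of these, Ptprc, Itgam and Epcam did not pass in either table. Cd68, Csf1r, Lyz2, Krt18 and Cldn3 passed in both, and Adgre1, Krt8 and Cdh1 in a single table each. Of 4 endothelial markers 2 passed on the 8 arrays and 1 on the 9, with sums of 300.4 to 409.7 and 63.3 to 213.6. Of 5 adipocyte and muscle markers 2 passed in each, with sums of 381.6 to 712.3 and 207 to 370.3. The untreated array of the MEK experiment stood apart in a single measure of RNA quality. Its 3′ probe set of Gapdh was 1.13 times as bright as the 5′ one (0.739 to 0.907 times on the other 16). By the same ratio for actin it did not stand apart, at 1.47, with 1.17 to 1.67 on the other 16.

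The genes were expressed at all levels. Npm1, which encodes the abundant nucleolar chaperone nucleophosmin, and Ncl, which encodes nucleolin, had mean signals of 11160 and 6336 in the 8-array table, above 98.6% and 97.2% of the probe sets kept. The dimmest was Rrp12, an export and processing factor of the subunits, at 122.7, above 15.3%. Npm1 stood in the 9-array table at 11460 and Nolc1, the nucleolar chaperone Nopp140, was dimmest at 52.1, above 3% only. Probe sets differ in brightness for the same amount of RNA, so these ranks are of signals and not of transcript number.

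Sequences just before the gene are shown for 8 members, chosen after values were seen, to set genes with low LY294002 estimates and none of the searched motifs in the stretch shown (Nop58, Polr1b, Nolc1, Gnl3) beside genes that hold a motif. Of the latter Gar1 and Nip7 also had low estimates, Polr1c a high one, and Nop2 is an example of the E-box. Each is the 110 bases before the annotated start of the gene, 5′ to 3′ on the strand of the gene, from RefSeq on build GRCm38.p6. Capitals mark the motif.
Nop58 (chr1:59684851-59684960, plus strand): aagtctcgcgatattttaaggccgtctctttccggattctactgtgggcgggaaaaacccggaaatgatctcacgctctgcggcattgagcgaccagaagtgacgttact
Polr1b (chr2:129100860-129100969, plus strand): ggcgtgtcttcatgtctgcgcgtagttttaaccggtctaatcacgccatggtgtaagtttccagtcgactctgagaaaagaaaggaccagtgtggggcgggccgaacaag
Nolc1 (chr19:46075737-46075846, plus strand): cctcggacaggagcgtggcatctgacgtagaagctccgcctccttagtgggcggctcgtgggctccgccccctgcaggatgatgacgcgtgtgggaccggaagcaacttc
Gnl3 (chr14:31019132-31019241, minus strand): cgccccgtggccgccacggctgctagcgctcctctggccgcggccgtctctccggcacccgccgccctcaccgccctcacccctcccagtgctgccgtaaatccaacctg
Gar1 (chr3:129831408-129831517, minus strand): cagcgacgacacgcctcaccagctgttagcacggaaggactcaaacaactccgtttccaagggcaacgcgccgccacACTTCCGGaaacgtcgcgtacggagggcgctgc
Nip7 (chr8:107056767-107056876, plus strand): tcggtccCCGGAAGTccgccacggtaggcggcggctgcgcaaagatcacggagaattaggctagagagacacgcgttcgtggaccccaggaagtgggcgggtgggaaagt
Nop2 (chr6:125131773-125131882, plus strand): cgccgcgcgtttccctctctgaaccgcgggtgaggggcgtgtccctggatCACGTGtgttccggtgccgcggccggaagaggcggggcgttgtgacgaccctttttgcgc
Polr1c (chr17:46248046-46248155, minus strand): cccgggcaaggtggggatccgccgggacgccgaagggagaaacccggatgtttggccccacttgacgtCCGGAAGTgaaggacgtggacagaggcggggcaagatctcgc

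RefSeq promoter windows, 250 bases before to 50 after a transcript start, were at hand for 31 of the 36 genes. Rrs1, Bop1, Rrp12, Fbl and Npm1 were not among them. The E-box CACGTG, which is its own reverse complement and is the site MYC and related factors bind, was in a window of 6 of 31 (19.4%): Grwd1, Mybbp1a, Nop2, Pes1, Utp20 and Wdr43. It was in a window of 8.09% of all 27025 genes in the table. The E-box of Nop2 began at base -60 from the transcript start, and those of the other members at base 3 to 41, past the start. The ETS motif CCGGAAGT, on either strand, was in 7 of 31 (22.6%), against 4.31% of all genes: Ebna1bp2, Gar1, Grwd1, Nhp2, Nip7, Noc2l and Polr1c. The CRE TGACGTCA, also its own reverse complement, was in Noc4l alone (3.23%, against 2.03%). No motif as searched contains another, and Grwd1 held the first and the second. A match is a description of letters and no evidence of binding.

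Of the genes with a window, the 6 with the E-box had a median LY294002 estimate of -0.17, and the 22 measured genes without it had -0.16. The 7 with the ETS motif had -0.28 (range -0.41 to 0.15), and the 21 without had -0.15 (-0.76 to 0.16). The ranges overlap, and Polr1c with the motif and Nop58 without it are near opposite ends.

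The first question was whether the genes respond to PDGF. In the 8-array table, where 4 pairs of arrays differ by PDGF, 0 of 33 genes passed the threshold (limma), where 3.31% of all 15838 probe sets did. Unadjusted p was under 0.05 for 4 of 33, beside 16.4% of all probe sets. The median estimate was 0.009 on the log2 scale, beside -0.027 for all probe sets, with 16 genes below 0, beside 56.1% of all. Of the 28 genes measured on the 9 arrays 0 passed, where 1.69% of 8695 probe sets did, with unadjusted p under 0.05 for 3, beside 13.3%. The median was -0.002, beside -0.027, with 14 below 0, beside 54.9%. In 3 of the 4 pairs of that table, those of the MEK experiment, the time after PDGF is not known. The smallest adjusted p was 0.116 for Rrs1 in the former and 0.0851 for Polr1c in the latter.

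**Figure D1:**
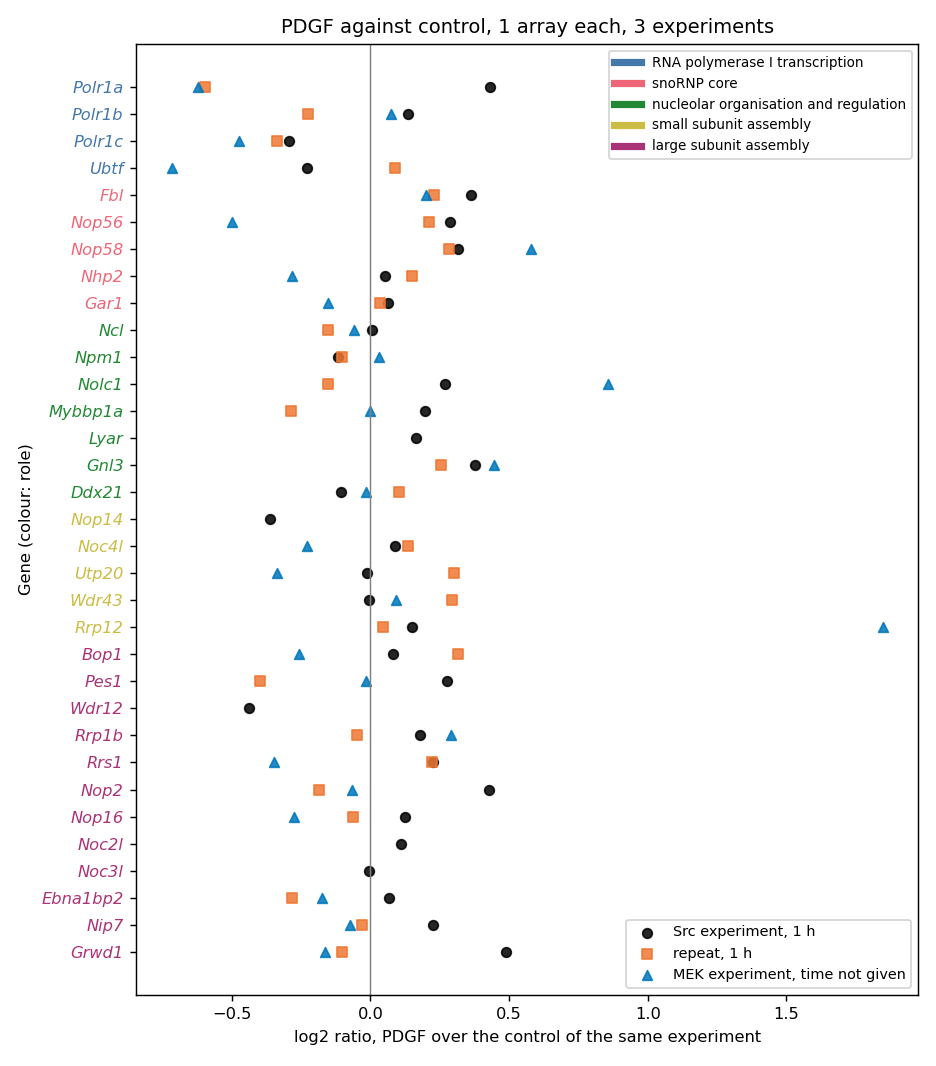
Log2 ratio of PDGF over the control of the same experiment (x axis) for each measured gene (y axis, coloured by role), 1 array against 1 array, in the Src experiment (circles), its repeat (squares) and the MEK experiment (triangles). Of the 28 genes in both tables, 4 lie above 0 in all 3 (Nop58, Gnl3, Fbl and Rrp12). Polr1c alone lies below 0 in all 3. They are named for this after values were seen, and the same share over all genes was not counted. Rrp12 reaches 1.85 in the MEK experiment.

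The genes of RNA polymerase I transcription lay below 0 in both tables, 4 of 4 in each, beside 56.1% and 54.9% of all probe sets. The medians were -0.14 and -0.28, and Polr1b was near 0 in the 8-array table, at -0.04 (SE 0.192). Polr1c encodes a subunit shared by RNA polymerases I and III. In the Src experiment its signals without PDGF were 1114 with vehicle, 1080 with SU6656, 1024 with UO126 and 1184 with LY294002. With PDGF they were 901.8, 952, 895.2 and 1059 in the same order. Each PDGF array was below its partner, although the LY294002 pair overlapped the range of the others.

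Polr1c in the 9-array table had signals of 1026 untreated, 1151 with UO126 and 1260 with PD98059 in the MEK experiment, and 732.7, 827.2 and 886.2 with PDGF added. In the repeat it was 1304 with vehicle, 1029 with PDGF and 1035 with PDGF and SU6656. Every PDGF array was again below its partner. The estimates were -0.20 (SE 0.078, adjusted p = 0.234) and -0.44 (SE 0.107, adjusted p = 0.0851) by limma, and the mean over the 3 experiments against control was -0.37 ± 0.09 (SD, n = 3). Its second probe set in the 9-array table had 0.34 (SE 0.175), the opposite sign, and that in the 8-array table -0.30 (SE 0.083, adjusted p = 0.0966).

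Ubtf encodes UBF, the factor that opens ribosomal DNA for the polymerase. Its signals without PDGF were 1517 with vehicle, 1868 with SU6656, 1737 with UO126 and 1545 with LY294002, and with PDGF 1290, 1546, 1266 and 1532. The estimate was -0.24 (SE 0.084, adjusted p = 0.199), while its second 8-array probe set had 0.06 (SE 0.098). In the MEK experiment it had 2034 untreated, 1447 with UO126 and 1415 with PD98059, and 1229, 1171 and 1288 with PDGF added. The repeat went the other way, with 1833 for vehicle, 1950 for PDGF and 2161 for PDGF with SU6656, and the estimate of the 9-array table was -0.27 (SE 0.134, adjusted p = 0.439).

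Polr1a, the largest subunit, showed no common direction. With vehicle and PDGF it had 273 and 380.6 in the Src experiment, 455.2 and 294 in the repeat, and 319.6 and 200.4 in the MEK experiment. The other signals of the 9-array table were 331.8 with UO126, 254.2 with PD98059, 298 with PDGF and UO126, 290.4 with PDGF and PD98059, and 428.8 with PDGF and SU6656 in the repeat. Its estimate there was -0.30 (SE 0.172, adjusted p = 0.511), and in the 8-array table -0.07 (SE 0.149).

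The snoRNP proteins had 4 of 5 estimates above 0 and 1 below in each table, beside 56.1% and 54.9% of all probe sets below 0. The medians were 0.14 and 0.08. Nop58, a core protein of the box C/D particles that guide methylation of ribosomal RNA, was above its partner in all 8 pairs of the series. Its signals in the Src experiment were 679.5 with vehicle, 509.9 with SU6656, 697 with UO126 and 449 with LY294002, and with PDGF 855, 719.4, 768.8 and 520.5. In the MEK experiment they were 697.3 untreated, 618 with UO126 and 495.2 with PD98059, and with PDGF 1053, 918.5 and 635.3. In the repeat they were 693.6 with vehicle, 848.8 with PDGF and 693.6 with PDGF and SU6656.

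The PDGF estimates of Nop58 were 0.28 (SE 0.098, 95% interval 0.06 to 0.50, adjusted p = 0.191) and 0.44 (SE 0.119, 0.18 to 0.71, adjusted p = 0.138), so the direction was shared and neither passed the threshold. Intervals here and below are not adjusted for the number of genes. The mean over the 3 experiments was 0.39 ± 0.16 (SD, n = 3). The probe set for Nop58 in the 9-array table is of a class that can match several transcripts, and that in the 8-array table is not.

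Fbl encodes fibrillarin, the methyltransferase of the same particles. Without PDGF it had 959 with vehicle, 1363 with SU6656, 1054 with UO126 and 1149 with LY294002, and with PDGF 1244, 1143, 1183 and 1197, so the vehicle array alone stood low. In the MEK experiment the signals were 1289, 1112 and 1229 without PDGF (untreated, UO126, PD98059) and 1485, 1486 and 1055 with it. In the repeat they were 1371 with vehicle, 1610 with PDGF and 1363 with PDGF and SU6656. The mean over the 3 experiments was 0.26 ± 0.09 (SD, n = 3), while over all pairs, inhibitors included, the estimates were 0.08 (SE 0.103) and 0.16 (SE 0.123). The second 8-array probe set of Fbl had 0.21 (SE 0.105).

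Of the other snoRNP proteins Nhp2, a protein of the box H/ACA particles that guide pseudouridine formation, had an estimate of 0.13 (SE 0.079) in the 8-array table and -0.05 in the 9-array table. Nop56, the partner of Nop58, had 0.15 (SE 0.111) and 0.05 (SE 0.145), while its second 8-array probe set had -0.09 (SE 0.111). Gar1, also of the H/ACA particles, had -0.01 (SE 0.119) and 0.08 (SE 0.151).

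Among the nucleolar regulators, Gnl3, the GTP-binding protein nucleostemin, was above control in all 3 experiments, with 0.38 in the Src experiment, 0.26 in the repeat and 0.45 in the MEK experiment, a mean of 0.36 ± 0.10 (SD, n = 3). Gnl3 was singled out for this direction after its values were seen. Its estimates over all pairs were smaller, 0.19 (SE 0.092, adjusted p = 0.346) and 0.14 (SE 0.136, adjusted p = 0.721). Npm1 had 12090 with vehicle and 11150 with PDGF in the Src experiment, 14260 and 13290 in the repeat, and 10030 untreated and 10240 with PDGF in the MEK experiment. Ncl had 6700 and 6726, 9837 and 8835, and 5952 and 5711 in the same order. Their estimates lay within 0.10 of 0 in both tables, while another 8-array probe set had -0.11 (SE 0.046) for Npm1 and -0.34 (SE 0.110) for Ncl.

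The 8-array signals of these genes under inhibitors were 9597 with SU6656, 11630 with UO126 and 12030 with LY294002 for Npm1, and 11520, 9571 and 11670 with PDGF added. For Ncl they were 6700, 6090 and 6495, and 6290, 5158 and 6530 with PDGF. In the 9-array table Npm1 had 10630 with UO126, 11560 with PD98059, 11210 with PDGF and UO126, 8741 with PDGF and PD98059, and 13150 with PDGF and SU6656. Ncl had 4600, 5844, 6898, 5844 and 9447 in that order. Arrays without and with PDGF overlapped for both genes. Mybbp1a, a regulator of polymerase I, Lyar, a cell growth regulating nucleolar protein, and Ddx21, an RNA helicase, had 8-array estimates of -0.14, 0.03 and 0.06. The second 8-array probe set of Mybbp1a had 0.13 (SE 0.1), the opposite sign, and that of Ddx21 had 0.32 (SE 0.127).

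Small subunit factors had medians of -0.03 and 0.04. Rrp12 had the largest estimate of any member in the 9-array table, 0.66 (SE 0.287, 95% interval 0.02 to 1.30, adjusted p = 0.362). Its signals in the MEK experiment were 25.44 untreated, 124.2 with UO126 and 91.48 with PD98059, and with PDGF 146.7, 153.6 and 137.2. In the repeat it had 203.6 with vehicle, 210.7 with PDGF and 194.3 with PDGF and SU6656. The untreated array stood far below all the others, and it is the array with the Gapdh ratio of 1.13, whose part in this result was not tested. In the 8-array table the estimate was 0.07 (SE 0.221). Nop14, which helps to assemble the small subunit precursor, had signals without PDGF of 381.3 with vehicle, 471.4 with SU6656, 371.2 with UO126 and 389.5 with LY294002. With PDGF it had 288.5, 453.9, 344.7 and 361.5, lower in each pair, and an estimate of -0.15 (SE 0.114). Noc4l, Utp20 and Wdr43, other factors of small subunit assembly, lay between -0.14 and 0.10 in both tables.

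In large subunit assembly Rrs1, a factor for integration of the 5S particle, had the largest PDGF estimate of the 8-array table, 0.50 (SE 0.145, 95% interval 0.17 to 0.82, adjusted p = 0.116). Its signals without PDGF were 357 with vehicle, 160.1 with SU6656, 267.2 with UO126 and 185.8 with LY294002, and with PDGF 423.3, 331.9, 377.3 and 258.7. Every PDGF array was above its partner, and the pair with SU6656 was farthest apart, at 0.91 on the log2 scale. The 9-array estimate was -0.12 (SE 0.133), with 716.9 untreated and 558.6 with PDGF in the MEK experiment. In the repeat Rrs1 had 648.3 with vehicle and 759.3 with PDGF. The direction was not shared by the tables, which are of different array types.

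Wdr12, which with Pes1 and Bop1 forms a complex needed for the large subunit, had signals without PDGF of 332.5 with vehicle, 310.6 with SU6656, 341.6 with UO126 and 258.3 with LY294002. With PDGF it had 236.1, 336.7, 262.3 and 203.2. The SU6656 pair went up and the other pairs down, for an estimate of -0.24 (SE 0.138, adjusted p = 0.432). Nop16 had 261.8, 248.1, 280.6 and 180.7 without PDGF and 288.3, 309, 260.3 and 261.4 with it, an estimate of 0.19 (SE 0.141). The other genes of this role lay between -0.06 (Pes1) and 0.16 (Nip7) in the 8-array table, and between -0.08 (Ebna1bp2) and 0.12 (Bop1) in the 9-array table once Nop16 (-0.20) and Rrs1 are set aside. The 12 measured genes of this role had a median of 0.03 in the 8-array table, and the 9 of the 9-array table had -0.06.

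Single ratios of PDGF over control were mostly small. In the Src experiment 24 of 33 were above 0 with a median of 0.12, but 0 were 1.5-fold up, beside 6.43% of all probe sets, and 0 were 1.5-fold down, beside 5.52%. In the repeat 14 of 28 were above 0, with 0 up (10.3% of all) and 1, Polr1a, down (11.2%). In the MEK experiment Rrp12 and Nolc1 were 1.5-fold up (9.66% of all) and Polr1a and Ubtf down (9.01%). Nolc1 had 30.7 untreated and 72.8 with PDGF there, both near the dim end of the table. Across the 28 genes in both tables the ratios of the Src experiment and the repeat, which share no array, had Pearson's r of -0.09 and Spearman's rho of -0.11, a description over genes that are not independent replicates. Src and MEK experiments had 0.23 and 0.24, and the MEK experiment and the repeat 0.12 and 0.04. The Src experiment was on another array type than the repeat and the MEK experiment, so array type and experiment cannot be told apart there.

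The genes above their partner in all 4 pairs of the 8-array table were 4 of 33, Nhp2, Nip7, Nop58 and Rrs1, beside 10.5% of all probe sets, and 3, Nop14, Polr1c and Ubtf, were below in all 4, beside 14.3%. Of the 28 genes measured on the 9 arrays, 2 (Nop58 and Rrp12) were above in all 4 pairs, beside 9.11%, and 1, Polr1c, was below, beside 12.5%. As shares of the members, these counts are near or below those of all probe sets. Nop58 and Polr1c were the genes with 1 direction in all 8 pairs, and they were singled out after their values were seen.

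The second question was whether LY294002 changes the level of the genes. In the additive fit of the 8-array table, which sets the 2 LY294002 arrays against the vehicle and the PDGF array, 0 of 33 passed the threshold (limma), where 0.511% of all probe sets did. The smallest adjusted p was 0.0949 for Nop58. The estimates leaned low, with 23 of 33 below 0, beside 49.9% of all probe sets, and a median of -0.15, beside 0 for all. In single ratios the median was -0.035 against vehicle and -0.166 against the PDGF array, beside -0.003 and 0.004 for all probe sets. Against the same PDGF array UO126 had -0.147 and SU6656 -0.089, beside 0.002 and 0.007, and against vehicle they had 0.035 and 0.074. A low median against the PDGF array was thus shared by the other inhibitors. Unadjusted p was under 0.05 and the estimate below 0 for 7 of 33, Polr1b, Rrs1, Nop58, Nolc1, Gnl3, Nip7 and Ebna1bp2, beside 6.97% of all probe sets. For 0 of 33 it was under 0.05 and above 0, beside 6.31%. This lean describes the list and was not tested, and no single gene passed.

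**Figure D2:**
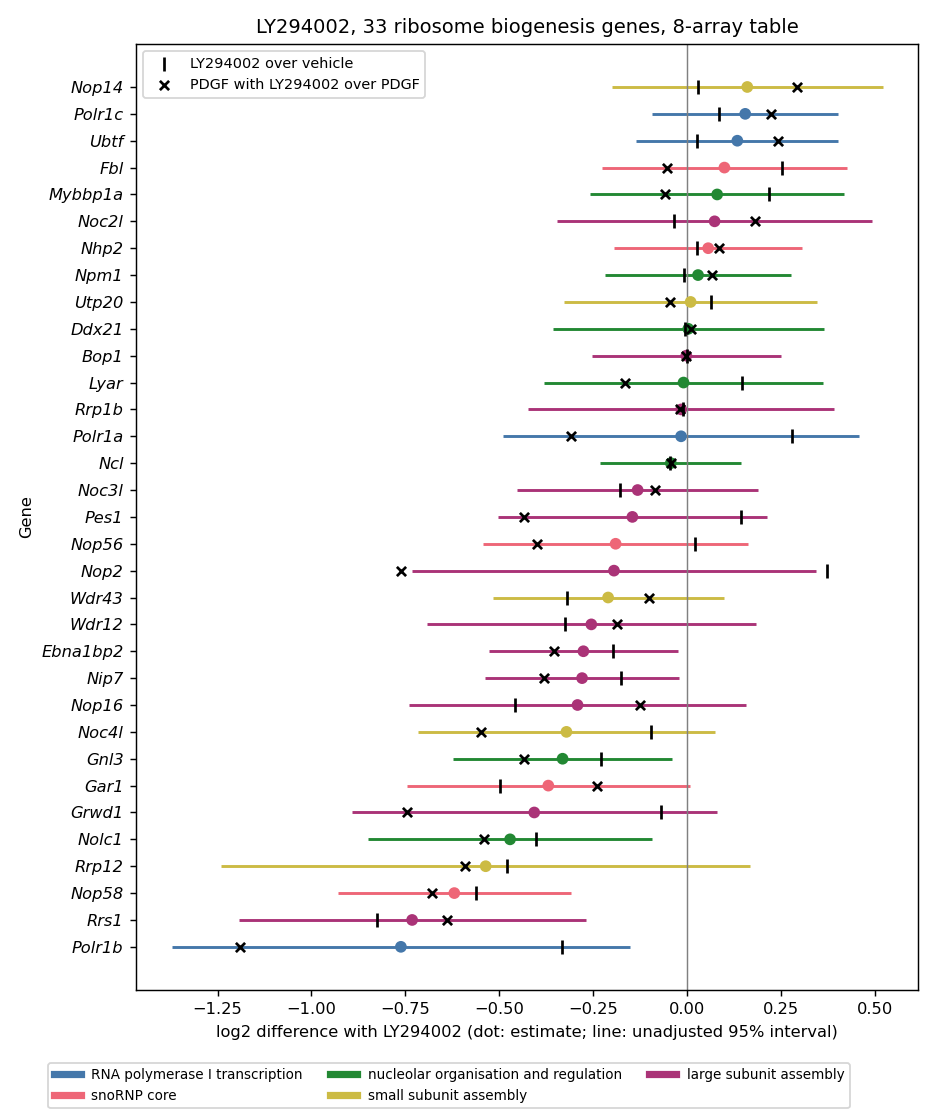
Estimated log2 difference with LY294002 (x axis; dot) with its unadjusted 95% interval (line) for 33 genes (y axis, coloured by role), and the single ratios LY294002 over vehicle (bars) and PDGF with LY294002 over PDGF (crosses), 1 array each. Polr1b, Rrs1 and Nop58 lie lowest, at -0.76, -0.73 and -0.62, and for Polr1b the single ratios are far apart.

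By role, large subunit assembly had 11 of 12 estimates below 0 and a median of -0.23, small subunit assembly 3 of 5 and -0.21, and the snoRNP proteins 3 of 5 and -0.19. The nucleolar regulators had 4 of 7 and -0.01, and the genes of polymerase I 2 of 4 and 0.06. Noc2l, with 0.07 (SE 0.186), was the large subunit gene above 0.

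Nop58 was lowest on the LY294002 array both without PDGF (449, against 509.9 to 697 on the other arrays) and with it (520.5, against 719.4 to 855). The estimate was -0.62 (SE 0.138, 95% interval -0.93 to -0.31, adjusted p = 0.0949), with -0.56 from the ratio without PDGF and -0.68 from that with PDGF. Rrs1 had -0.73 (SE 0.205, -1.19 to -0.27, adjusted p = 0.165). Its 2 LY294002 arrays, 185.8 and 258.7, were below the vehicle and the PDGF array, 357 and 423.3, but without PDGF the SU6656 array was lower still, at 160.1.

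Polr1b, the second largest subunit of RNA polymerase I, had the lowest estimate, -0.76 (SE 0.271, 95% interval -1.37 to -0.15, adjusted p = 0.268). Without PDGF its signals were 264.1 with vehicle, 158.5 with SU6656, 194.4 with UO126 and 202.2 with LY294002. With PDGF they were 293.3, 194.9, 225.4 and 108.1. Only the array with both PDGF and LY294002 lay outside the rest. The estimate was -0.30 without that array and -1.21 without the array of LY294002 alone. In the 9-array table Polr1b had 353.7 untreated, 292.3 with UO126, 332.5 with PD98059 and, with PDGF, 373.9, 277.8 and 284.6, and in the repeat 504.3 with vehicle, 427.8 with PDGF and 411 with PDGF and SU6656.

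Nolc1 had signals without PDGF of 482.7 with vehicle, 487.5 with SU6656, 463.7 with UO126 and 356.4 with LY294002, and with PDGF 589.1, 397.9, 464.3 and 393.8. It was lowest on both LY294002 arrays, by a small margin over SU6656 with PDGF, and the estimate was -0.47 (SE 0.168, -0.85 to -0.09, adjusted p = 0.269). Its second probe set had -0.32 (SE 0.148). Gnl3 had 940.1, 1130, 918.9 and 796.4 in the order vehicle, SU6656, UO126 and LY294002, and with PDGF 1231, 1093, 1106 and 901.9, an estimate of -0.33 (SE 0.130, adjusted p = 0.311). Gar1 had 541.7, 646.1, 640.8 and 372.8, and with PDGF 567.9, 531.8, 573.5 and 475.2, an estimate of -0.37 (SE 0.168, adjusted p = 0.385). For both, the LY294002 arrays were the lowest of their set.

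Nip7, a late factor of the large subunit, had 978.3, 1055, 1039 and 861.1, and with PDGF 1150, 1166, 1245 and 873.8 (estimate -0.28, SE 0.115). Ebna1bp2, also of the large subunit, had 1093, 1101, 1144 and 948.9, and with PDGF 1147, 1040, 1192 and 888.2 (-0.28, SE 0.112). The LY294002 array was again the lowest in each set. By their second probe sets Nip7 had 0.02 (SE 0.242) and Ebna1bp2 -0.26 (SE 0.399). Grwd1, a chaperone of a ribosomal protein, had -0.41 (SE 0.216) and Rrp12 -0.54 (SE 0.313). For Grwd1 the PDGF array was high, at 643.2, against 350.3 to 531.8 on the other 7, and this array is the denominator of its ratio under PDGF.

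**Figure D3:**
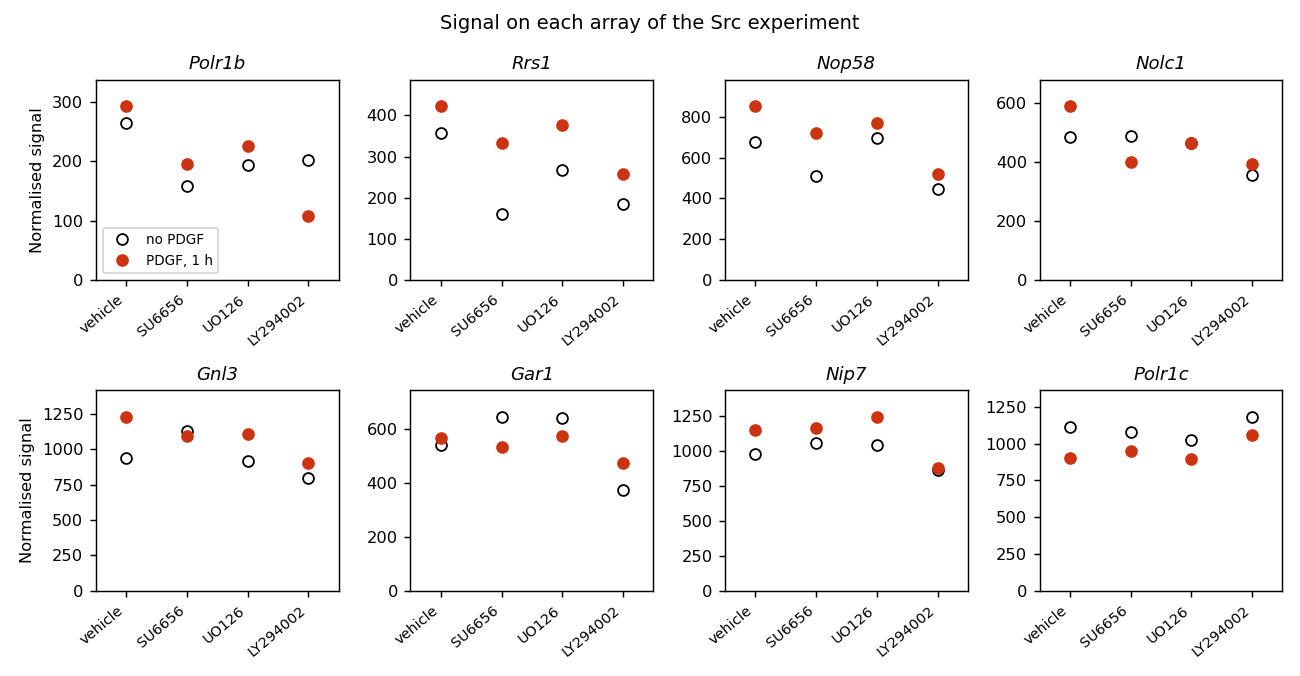
Normalised signal (y axis, from 0) on each of the 8 arrays of the Src experiment for 8 genes, by inhibitor (x axis), without PDGF (open points) and with PDGF for 1 h (filled points), 1 array per point. The LY294002 points of Nop58, Nolc1, Gnl3, Gar1 and Nip7 are the lowest of each set, those of Polr1c the highest, and for Polr1b the filled LY294002 point stands alone at 108.1.

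At the other end, Nop14 had an estimate of 0.16 (SE 0.161), Polr1c 0.15 (SE 0.110) and Ubtf 0.13 (SE 0.120). The second probe set of Ubtf had -0.22 (SE 0.138). Polr1c was highest on the LY294002 array both without and with PDGF, and its second probe set had 0.55 (SE 0.118, adjusted p = 0.0860). Npm1 had an interval of -0.22 to 0.28, but its second probe set had 0.22 (SE 0.065, adjusted p = 0.192). Ncl had an interval of -0.23 to 0.14, and its other probe sets had estimates of -0.21 to 0.17.

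Counted over the list, 9 of 33 genes lay below the 3 other arrays on both LY294002 arrays, beside 11.5% of all probe sets: Bop1, Ebna1bp2, Gar1, Gnl3, Nip7, Nolc1, Nop58, Wdr12 and Wdr43. Bop1 was below by the narrowest margin, 990 against 990.2 with vehicle. In the deposited intensities, before quantile normalisation, that order was reversed, with 998.3 for LY294002 and 990 for vehicle. Polr1c alone lay above on both, beside 11.5%. The same count was 3 for UO126 (Ncl, Pes1 and Polr1c), beside 8.37%, and 0 for SU6656, beside 6.82%.

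In single ratios, LY294002 over vehicle was 1.5-fold down for 1 of 33 genes, Rrs1, beside 6.11% of all probe sets. PDGF with LY294002 over PDGF was 1.5-fold down for 6 of 33, Polr1b, Nop2, Grwd1, Nop58, Rrs1 and Rrp12, beside 6.5%. Nop2, a methyltransferase of ribosomal RNA, had -0.76 with PDGF but 0.37 without it. Across the 33 genes the ratios without and with PDGF, which share no array, had r of 0.37 and rho of 0.41, with 18 genes below 0 in both, again a description over genes. The same ratios for UO126 had r of 0.35 and rho of 0.33, and for SU6656 0.20 and 0.11, so this likeness is not shown to be particular to LY294002. With 1 array per condition, whether the LY294002 effect depends on PDGF could not be tested.

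The other inhibitors were set against LY294002 in the same fit. UO126 had a median of -0.02 and SU6656 0.01, with 0 of 33 genes past the threshold for either, beside 0.0442% and 0.107% of all probe sets, and 2 and 4 genes at unadjusted p under 0.05 (limma), beside 9.05% and 8.02%. All 3 inhibitors share the same vehicle and PDGF arrays as controls. The lowest under UO126 were Rrp12 with -0.55 (SE 0.313) and Pes1 with -0.51 (SE 0.160, adjusted p = 0.398). Under SU6656 they were Rrs1 with -0.66 (SE 0.205, adjusted p = 0.472) and Polr1b with -0.57 (SE 0.271), and Nop14 was highest with 0.44 (SE 0.161).

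The difference LY294002 minus UO126 had a median of -0.08 and 0 genes past the threshold, beside 1.4% of all probe sets, with 8 at unadjusted p under 0.05, 6 of them below 0, beside 15.2% in either direction. It was largest for Nop58, -0.56 (SE 0.138, 95% interval -0.87 to -0.25, adjusted p = 0.0928), then Gar1, -0.49 (SE 0.168, -0.87 to -0.11, adjusted p = 0.203). LY294002 minus SU6656 had a median of -0.14 with 26 of 33 below 0, beside 50.9% of all probe sets. Of these genes 0 passed the threshold, beside 0.688%, and 3 had unadjusted p under 0.05, beside 13.5%. For Rrs1 this difference was -0.07 with an interval of -0.53 to 0.39, and for Polr1b -0.19 with -0.80 to 0.42, so the low estimates of these genes are not shown to be particular to LY294002.

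**Figure D4:**
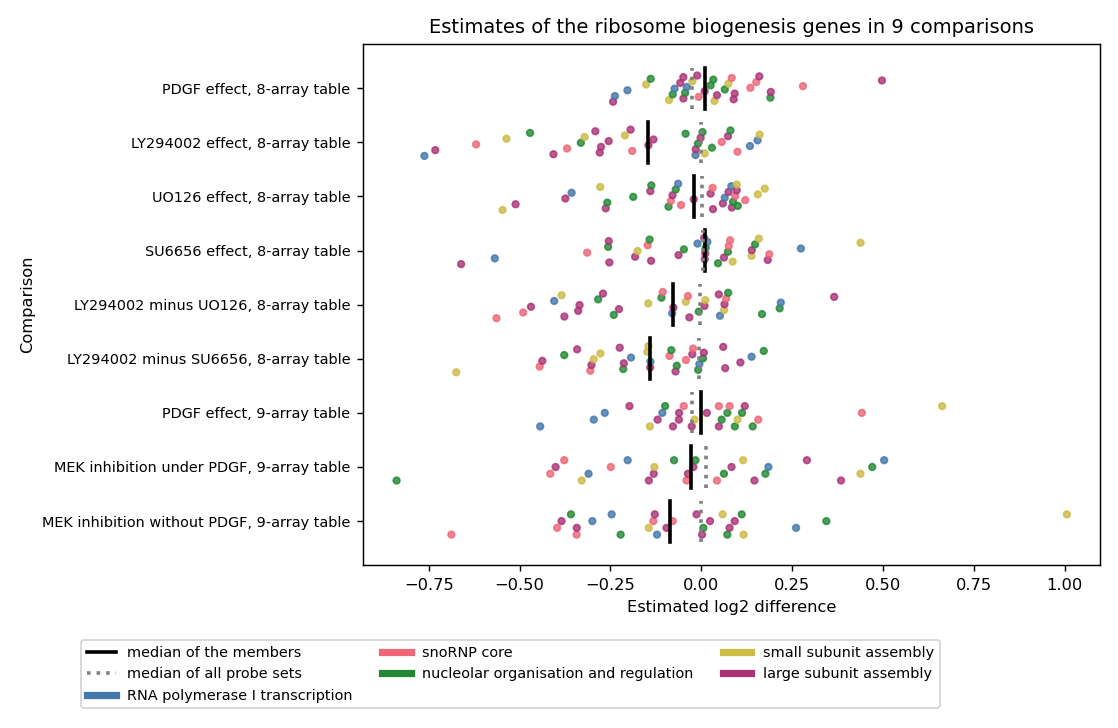
Estimated log2 difference (x axis) of every measured gene (points, coloured by role) in each of 9 comparisons (y axis), with the median of the members (solid line) and of all probe sets (dotted line). The members' median is farthest from that of all probe sets for LY294002, at -0.15 against 0, and Rrp12 stands at 1.01 for MEK inhibition without PDGF.

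MEK inhibition in the 9-array table, with UO126 and PD98059 taken as 2 replicates, gave 0 of 28 genes past the threshold under PDGF (0% of all probe sets) and 0 without PDGF (0.0115%). Unadjusted p was under 0.05 for 0 and for 2 genes (limma), beside 7.19% and 7.21%. The medians were -0.03 and -0.09. Under PDGF, Nolc1 had the lowest estimate, -0.84 (SE 0.494), with signals of 72.8 with PDGF, 31.09 with UO126 added and 16.04 with PD98059 added, and 105, 92.26 and 65.45 for vehicle, PDGF and PDGF with SU6656 in the repeat. Without PDGF it had 19.21 with UO126 and 36.34 with PD98059. These signals are among the dimmest kept.

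The snoRNP proteins lay below 0 for 4 of 5 with PDGF and 5 of 5 without it, beside 48.3% and 50.4% of all probe sets. Without PDGF each estimate rests largely on the single untreated array, the one with the Gapdh ratio of 1.13, whose part was not tested. The fit shares its PDGF term between the experiments of that table, so the PDGF array and the repeat also enter. Nop56 had 1367 on the untreated array against 970.5 with UO126 and 923.8 with PD98059, and Nhp2 had 3191 against 2770 and 2830. Gar1 had 1952 untreated, 1155 with UO126 and 1173 with PD98059, and with PDGF 1754, 1864 and 981.5, so the inhibitors differed under PDGF. Its estimates were -0.69 without PDGF (SE 0.282, 95% interval -1.31 to -0.06, adjusted p = 0.644) and -0.42 with it (SE 0.282, -1.04 to 0.21). Nop58 had -0.40 (SE 0.241) and -0.38 (SE 0.241). Rrp12 had 1.01 without PDGF (SE 0.432, 0.05 to 1.97, adjusted p = 0.660), where the untreated array was low, at 25.44. Polr1a was highest under PDGF with 0.50 (SE 0.230, adjusted p = 0.701).

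SU6656 was also added to PDGF in the repeat, where the ratio to PDGF had a median of -0.03. Mybbp1a was lowest, at -0.66, and Polr1a highest, at 0.51. The same ratio in the Src experiment had -0.03 for Mybbp1a and -0.39 for Polr1a, so Polr1a changed sign and Mybbp1a was near 0 there.

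Other genes of ribosome production were counted in the same fits. Of 135 further assembly factors, 109 were measured in the 8-array table. With PDGF 1 of 109 rose (limma), beside 2.5% of all probe sets, and 0 fell, where 129 of all 15838 probe sets did. Of the 79 measured on the 9 arrays 0 passed either way (limma), beside 1.69%. The gene that rose was Gtpbp4, a GTPase of large subunit assembly, with signals of 377 with vehicle, 292 with SU6656, 277.6 with UO126 and 356 with LY294002, and 520.2, 531.5, 530.3 and 482.9 with PDGF. The groups did not overlap, and the estimate was 0.62 (SE 0.123, adjusted p = 0.0254). Its second probe set had 0.36 (adjusted p = 0.113) and that of the 9-array table had 0.34 (SE 0.112, adjusted p = 0.232). Leaving out any 1 of the 8 arrays lost the call, with adjusted p of 0.0521 to 0.122.

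With LY294002 1 of 109 rose, beside 0.202% of all probe sets, and 0 fell, where 49 of all 15838 probe sets did. The gene was Polr1d, a subunit shared by polymerases I and III. The median of the 109 was -0.06, with 68 below 0, beside 49.9% of all probe sets. Polr1d had 1340 with vehicle, 1781 with SU6656, 1662 with UO126 and 2028 with LY294002, and 1188, 1487, 1623 and 1862 with PDGF. LY294002 was highest in each set, with an estimate of 0.61 (SE 0.102, adjusted p = 0.0387), and the second probe set had 0.31 (adjusted p = 0.550). The call was lost without the vehicle array, the PDGF array or either LY294002 array (adjusted p of 0.245 to 0.294), and without the SU6656 array (0.0538). Against UO126 the difference was 0.24 and against SU6656 0.25, neither past the threshold (adjusted p of 0.309 and 0.331).

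The cytosolic ribosomal proteins make up the finished particle. Of 78 genes, 43 were measured in the 8-array table with medians of -0.01 for PDGF and 0.01 for LY294002, and 0 passed in either fit (limma), beside 3.31% and 0.511% of all probe sets.

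Myc itself rose with PDGF in both tables, by 1.6 (SE 0.139, adjusted p = 0.000167) and 1.59 (SE 0.264, adjusted p = 0.0122). In the Src experiment its signal was 392.2 with vehicle, 282.1 with SU6656, 438.8 with UO126 and 499.8 with LY294002, and 1622, 945.3, 949.7 and 1802 with PDGF. The groups did not overlap, and PDGF with LY294002 was the highest array. The LY294002 estimate of Myc was 0.24 (SE 0.197, adjusted p = 0.676). Signals in the 9-array table were 66.72 untreated, 111.9 with UO126 and 188.9 with PD98059, then 506.5, 365.5 and 294.4 with PDGF, and 246.8, 816.4 and 523.8 for vehicle, PDGF and PDGF with SU6656 in the repeat. That call was lost without the MEK experiment's array of UO126 or of PDGF with UO126, or without the repeat's vehicle or PDGF array (adjusted p of 0.0600 to 0.0997).

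Probe sets of 1 gene did not always go the same way. Of the 19 members with several probe sets in the 8-array table, the sign differed between them for 9 with PDGF and for 6 with LY294002, with a median gap of 0.17 and 0.24 on the log2 scale. The sign differed for 3 of 5 such genes of the 9-array table. In the 8-array table the second probe set of Pes1 had 0.38 (SE 0.147) with PDGF, against -0.06 for the brighter one. That of Nop56 had -0.55 (SE 0.157) with LY294002, against -0.19. Of the 58 member probe sets kept, 0 passed the threshold in the PDGF or LY294002 fit of the 8-array table, and 0 of 33 passed in the PDGF fit of the 9-array table.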

How the data were processed

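The deposited data are intensity, linear and positive, which the authors had scaled so that the trimmed mean (2% off each end) of every array was 500.2 to 500.4. The software used, like the genome build if any, is not given in the sources used here. Of 22690 and 12488 probe sets in the 8-array and 9-array tables, 20393 and 10855 were annotated to 1 gene, with symbols updated through RefSeq (GRCm38.p6).

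Within each table, control probe sets were removed, arrays were quantile normalised, an offset (36.3 and 21.2 signal units, the table's 20th percentile) was added before log2, which understates changes of dim genes, and the dimmest 30% of probe sets were dropped. A gene is represented by its brightest probe set. Fits used limma 3.58.1 (R 4.3.3; lmFit, eBayes with trend), with Benjamini-Hochberg adjustment over every probe set kept, a threshold of 0.05, and 3 residual degrees of freedom. The residual holds treatment differences that have no term, and the number of arrays limits the precision. PDGF was fitted over 4 pairs per table, blocked by pair (shared experiment and inhibitor, from the design). The array of PDGF with SU6656 in the repeat has no partner and was left out there. Inhibitor effects in the 8-array table were additive with PDGF. The MEK fit used all 9 arrays with terms for PDGF, experiment, SU6656, MEK inhibition and its interaction with PDGF.

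Signals of every array are given for the 3 highest and 3 lowest estimates of the PDGF and LY294002 fits and 5 genes standing for their roles, and, added after values were seen, for some further genes low with LY294002 and for Gtpbp4, Polr1d and Myc. The members and lists were chosen with earlier results of these data known. Scripts were tested on simulated data.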

Additional observations from a re-analysis of the deposited data

How the results depend on the processing

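No member passed the threshold under any of the 159 combinations of a comparison and an alternative setting (scaling, offset, filter, variance model, choice of probe set, arrays left out), so no call among the members depends on them. The median of the members for LY294002 was -0.22 to -0.08 over its alternatives, and the smallest adjusted p among them 0.0678 to 0.401. The LY294002 estimate of Ubtf was -0.04 as a mean over probe sets and -0.02 to 0.28 with 1 array left out, and that of Nop14 was -0.02 against all 6 other arrays. The PDGF median of the 9-array table was -0.056 to 0.015 with 1 array left out. The median for MEK inhibition under PDGF was 0.086 with median scaling. That without PDGF was 0.004 as a mean over probe sets, -0.046 with probe sets of 1 transcript class and -0.118 to -0.056 with 1 array left out. At the lower fold limit tried in place of 1.5-fold, 4 members were up with PDGF in the MEK experiment and 5 were up in that of Src, 8 were down with LY294002 alone and 13 with LY294002 under PDGF. At 2-fold the counts were 1, 0, 0 and 1. The cause of these shifts was not tested, apart from the fold itself. The call of Gtpbp4 was also lost with no filter (adjusted p = 0.0648) and without the variance trend (0.104), that of Polr1d with median scaling (0.0718), no filter (0.0670), no trend (0.326), the mean over probe sets (0.133) and against all 6 other arrays (0.261), and that of Myc in the 9-array table with no filter (0.0575), no trend (0.134) and no replicate block (0.148).

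With 1 array per condition and residuals made of treatment differences, small changes could not be detected: the LY294002 interval of Rrp12, for one, was -1.24 to 0.17 on the log2 scale. Dim members (Rrp12, and Nolc1 in the 9-array table) have the least certain ratios.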
